A study of Mus musculus with 4 samples.

Results

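The expression of 35 epithelial genes, encoding keratins, desmosome components, claudins and other tight junction proteins, adhesion molecules and epithelial regulators, was examined in mouse embryonic fibroblasts (MEFs) with and without Pf1. Pf1, encoded by Phf12, is a PHD finger protein of Sin3 and histone deacetylase corepressor complexes. The genes were taken by name from the platform annotation of the array, where all 35 were found, with 65 probe sets between them, among 18193 named genes and 45037 probe sets that were not controls.

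There were 2 knockout lines (KO, lines 2 and 4, Pf1 -/-) and 2 wild-type lines (WT, lines 5 and 6, labelled Pf+/+), with 1 array for each line. All 4 lines carried the prefix 7706, were grown from minced torsos of embryonic day 13.5 or 14.5 embryos after removal of the head and the red organs, and were used at passage 2 to 3. They were kept at 6% oxygen and 5% CO2 in medium with serum and β-mercaptoethanol. The labels do not say which line had which embryonic day or passage, whether each line came from 1 embryo, or how the deletion was made, and the p-values cover no more than the spread among the 4 cultures. A torso culture of this kind is not a purified cell type, and in bulk RNA more cells of a type and more RNA per cell cannot be told apart.

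Keratins are the intermediate filament proteins of epithelia and assemble as pairs of a type I and a type II chain. Krt8 (type II) and Krt18 (type I) form the filaments of simple epithelia, whereas Krt5 and Krt14 form those of the basal layer of stratified epithelia such as epidermis. Desmosomes anchor these filaments at cell contacts through the plakin desmoplakin (Dsp), armadillo proteins (plakophilins and plakoglobin) and desmosomal cadherins. Claudins and occludin form the tight junction strands above them. Fibroblasts are mesenchymal cells, in which transcription factors of the Snail, Zeb and Twist families are known to repress epithelial genes, many of them through E-boxes in promoters.

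The values are log2 expression values centred on each probe set's median over the 4 arrays. They hold differences between lines and no level, so that it cannot be read from them whether a gene was expressed above background, and levels of different genes were not compared. For the same reason the labelled cell type could be checked only through differences in its markers. Where the genotypes did not overlap, the KO line and the WT line of a probe set that lay nearest to each other had values of equal size and opposite sign, which follows from the centring. Differences are KO minus WT with the standard error (SE) of the limma fit, n = 2 lines per genotype, and a gene was called at a Benjamini-Hochberg adjusted p under 0.05 over all 18193 genes. Phf12 was checked first: its probe set 1434922_at had -0.37 and -0.41 in KO lines 2 and 4, against 0.56 and 0.37 in WT lines 5 and 6 (limma adjusted p over all probe sets = 0.0213), and its other probe set, 1453579_at, had a difference of 0.012 (limma adjusted p = 0.965). The sources used here do not place these probe sets relative to the deleted part. The 3 control probe sets for 18S RNA averaged 0.64 and 0.070 in KO lines 2 and 4, against -0.070 and -0.77 in WT lines 5 and 6, and their part in the results was not tested.

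A small part of the epithelial genes differed between the genotypes, and most of those that did were higher in the knockout. The simple epithelial keratins Krt8 and Krt20, the desmosome genes Dsp and Pkp2 and the claudins Cldn3 and Cldn4 rose, Krt19 fell, and 28 of the 35 genes did not pass the test. The 6 genes that rose were 17.1% of the 35 genes, beside 5.21% of all genes called higher. The 1 gene that fell was 2.86%, beside 6.95% of all genes called lower, and in either direction 20.0% of the 35 genes and 12.2% of all genes were called. The median difference was 0.14 over the 35 genes and -0.0027 over all genes. At least 1.5-fold higher in KO without overlap between the genotypes were 8 of the 35 genes (22.9%), beside 4.11% of all genes, the additional genes being Krt7 and Krt18, and 0 were lower by that much, beside 5.53% of all genes. Without a minimum size, the genotypes did not overlap for 20 of the 35 genes (57.1%), beside 58.2% of all genes. Of these, 17 were higher in KO, beside 28.7% of all genes, and 3 were lower, beside 29.5%. Of the 65 probe sets, 9 were called, all higher, beside 3.92% of all probe sets called higher and 8.32% called in either direction. At an unadjusted limma p under 0.05, 9 of the 35 genes were higher in KO and 1 lower, beside 14.3% and 15.2% of all genes. The 35 genes were listed with earlier results of these data known, and no list test was made. The counts describe these genes beside the whole array.

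**Figure D1:**
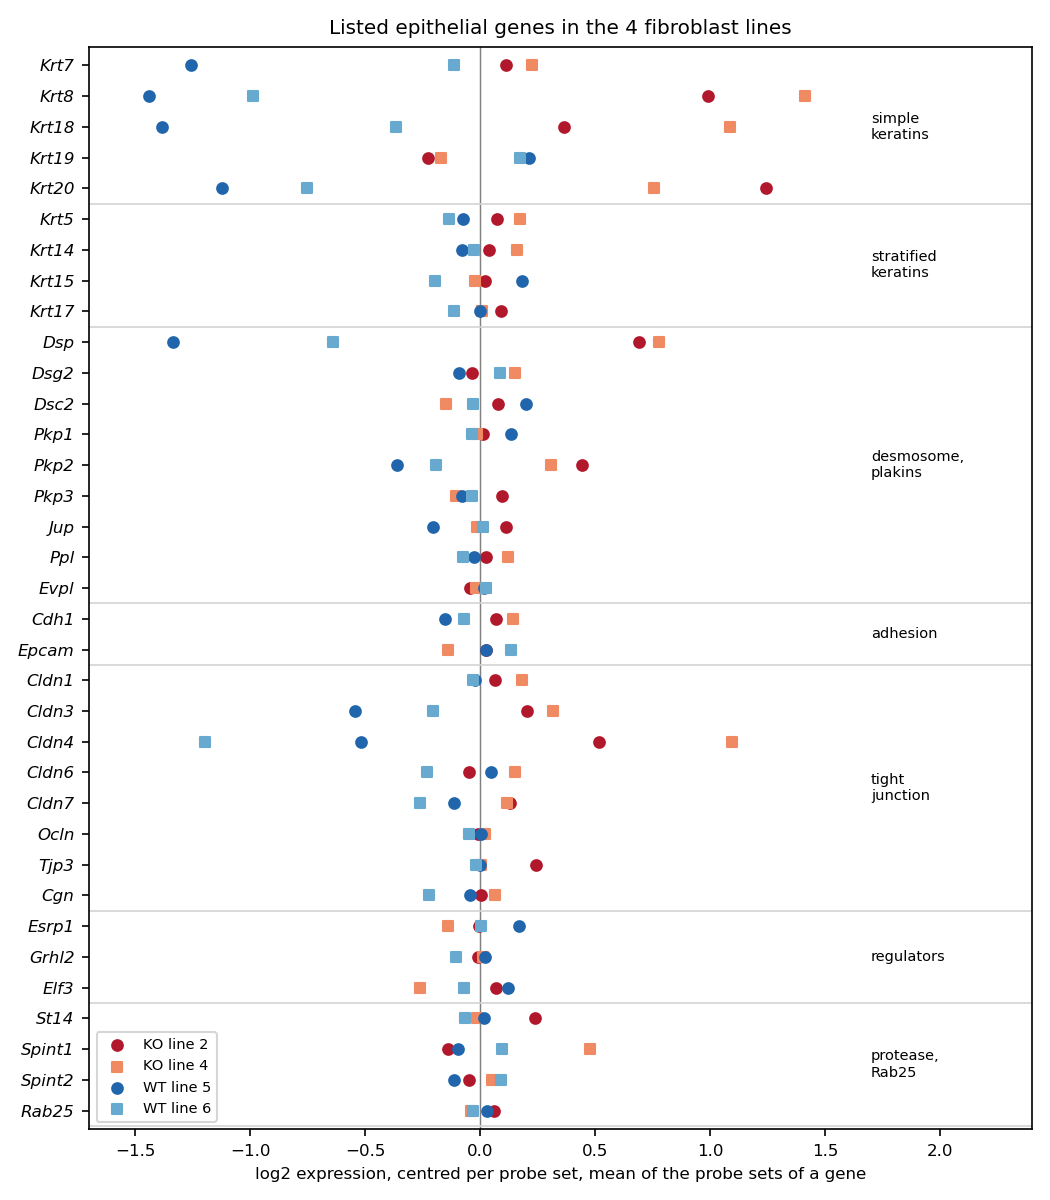
Centred log2 expression (x axis) of the 35 listed epithelial genes (y axis, by role) in KO line 2, KO line 4, WT line 5 and WT line 6, with 1 point per line, each the mean of the gene's probe sets. The KO lines lie well to the right of the WT lines for Krt8, Krt18, Krt20, Dsp and Cldn4, while most other genes stay near 0 in all 4 lines.

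**Figure D2:**
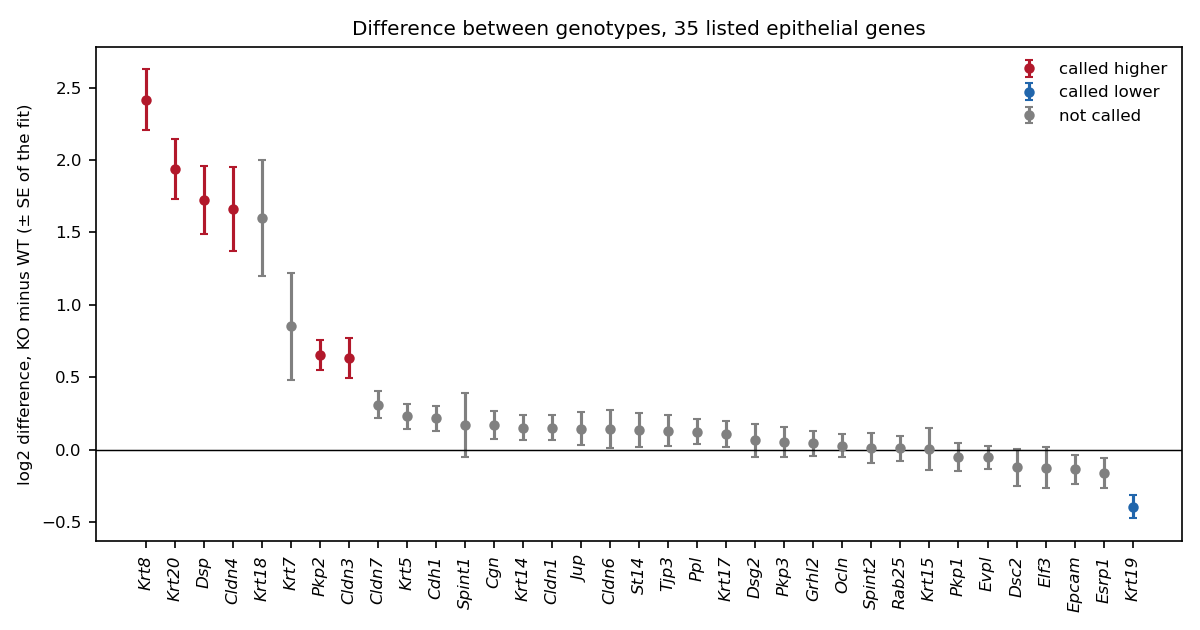
Log2 difference between KO and WT lines (y axis) for the 35 listed epithelial genes (x axis, sorted by it), with the standard error of the limma fit and n = 2 lines per genotype. Red points were called higher (6 genes), the blue point lower (Krt19) and grey points did not pass, Krt18 and Krt7 among them.

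The promoters of Krt8, its partner Krt18, Krt20, Dsp, Cldn4 and Cldn3 are shown because they are the 5 genes that rose and have a promoter in the table used, with the keratin partner of Krt8. The sequences are from RefSeq (GRCm38.p6), run from 250 bases before to 50 bases after the gene's start and are written 5′ to 3′ on the gene's strand. Capitals mark matches, on either strand, to a TATA box (TATAAA), a GC box (GGGCGG), the E-box CACCTG, an AP-1 site (TGANTCA) or a Grainyhead-type motif (AACNNGTT). Krt8 lies at chr15:102004293-102004592 on the minus strand and Krt18 at chr15:102027966-102028265 on the plus strand. Krt20 lies at chr11:99438104-99438403 (minus), Dsp at chr13:38151044-38151343 (plus), Cldn4 at chr5:134946885-134947184 (minus) and Cldn3 at chr5:134985964-134986263 (plus).
Krt8: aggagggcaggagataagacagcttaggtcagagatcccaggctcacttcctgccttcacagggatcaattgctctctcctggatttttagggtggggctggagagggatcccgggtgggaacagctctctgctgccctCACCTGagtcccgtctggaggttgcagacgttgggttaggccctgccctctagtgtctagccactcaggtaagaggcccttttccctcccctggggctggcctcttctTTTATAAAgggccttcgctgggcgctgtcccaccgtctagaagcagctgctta
Krt18: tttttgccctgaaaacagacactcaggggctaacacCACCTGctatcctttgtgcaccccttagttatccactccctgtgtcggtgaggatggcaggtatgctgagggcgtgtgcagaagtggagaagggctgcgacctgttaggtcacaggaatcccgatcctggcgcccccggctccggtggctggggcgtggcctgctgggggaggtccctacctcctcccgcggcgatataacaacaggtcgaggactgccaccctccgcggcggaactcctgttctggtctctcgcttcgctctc
Krt20: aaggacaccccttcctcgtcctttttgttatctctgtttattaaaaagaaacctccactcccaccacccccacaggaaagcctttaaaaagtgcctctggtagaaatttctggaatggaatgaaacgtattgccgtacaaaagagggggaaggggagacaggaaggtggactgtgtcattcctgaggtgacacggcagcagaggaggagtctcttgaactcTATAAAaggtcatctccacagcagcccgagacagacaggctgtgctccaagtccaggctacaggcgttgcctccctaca
Dsp: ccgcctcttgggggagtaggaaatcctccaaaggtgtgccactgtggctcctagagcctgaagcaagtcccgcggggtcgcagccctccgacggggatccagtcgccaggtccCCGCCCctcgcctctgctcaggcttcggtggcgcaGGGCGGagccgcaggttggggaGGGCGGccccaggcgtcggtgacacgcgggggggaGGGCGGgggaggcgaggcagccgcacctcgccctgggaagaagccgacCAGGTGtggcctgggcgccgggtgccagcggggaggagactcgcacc
Cldn4: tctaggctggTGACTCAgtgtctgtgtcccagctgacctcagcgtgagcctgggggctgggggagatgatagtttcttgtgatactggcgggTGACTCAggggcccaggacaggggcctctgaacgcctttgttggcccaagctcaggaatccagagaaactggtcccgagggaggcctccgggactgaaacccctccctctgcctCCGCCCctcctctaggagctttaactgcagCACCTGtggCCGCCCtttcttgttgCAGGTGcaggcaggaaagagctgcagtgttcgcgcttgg
Cldn3: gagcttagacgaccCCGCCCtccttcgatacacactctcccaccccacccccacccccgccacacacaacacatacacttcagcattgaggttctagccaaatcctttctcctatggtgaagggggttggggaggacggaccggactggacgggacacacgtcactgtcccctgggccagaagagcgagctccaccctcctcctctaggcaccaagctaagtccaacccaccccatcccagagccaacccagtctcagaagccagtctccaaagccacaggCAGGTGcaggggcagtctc

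These promoters had little in common beyond the E-box. Krt8 and Krt20 had a TATA box, in Krt8 as the overlapping letters of both strands, and Krt18, Dsp, Cldn4 and Cldn3 had none. Dsp held 4 GC boxes in a promoter of 73.0% G and C, and Cldn4 held 2 AP-1 sites, 2 GC boxes and 2 E-boxes. The E-box was present in 5 of the 6 promoters, with Krt20 as the exception. Among the 21 listed genes with a RefSeq promoter, 15 (71.4%) held the E-box, against 22.6% of 27025 genes with a promoter and 42.4% of 66 other epithelial genes. It was found in 4 of the 5 promoters of genes that rose and in 11 of the 16 of genes that were not called. The promoters of the listed genes were richer in G and C (median 59.0%) than those of all genes (52.7%), and the part of base composition in the E-box share was not tested. A Grainyhead-type match was present in 2 of the 21, Cgn and Rab25, against 4.77% of all genes. A TATA box was present in 2 of the 21 (9.52%, against 15.7% of all genes), a GC box in 13 (61.9%, against 38.2%) and an AP-1 site in 2 (9.52%, against 8.97%). A match describes these letters only.

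Among the simple epithelial keratins, Krt8 rose most. The mean of its 3 probe sets was 0.99 and 1.41 in KO lines 2 and 4, against -1.44 and -0.99 in WT lines 5 and 6. The genotypes were far apart relative to the spread within each, with a 5.33-fold higher level in KO (2.42 ± 0.21 SE, limma adjusted p = 0.0132). All 3 probe sets were called, with differences between 2.39 and 2.46 (limma adjusted p 0.0131 to 0.0155). These probe sets have an _a_at or _x_at suffix, which marks probes shared between transcripts of a gene or with other sequences.

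Krt18, the type I partner of Krt8, moved the same way with a wider spread. Its single probe set had 0.37 and 1.08 in KO lines 2 and 4, against -1.39 and -0.37 in WT lines 5 and 6. The genotypes did not overlap, but KO line 2 and WT line 6 lay closer to each other than either lay to WT line 5. The difference was 3.03-fold (1.60 ± 0.401 SE) and did not pass the test (limma adjusted p = 0.0659). Of 8 other settings with all 4 lines, 1 called it, and the limma adjusted p ran from 0.0323 to 0.0934. The call came when only genes with an SD above the median were tested, and that SD includes the difference under test.

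Krt20, a type I keratin of intestinal and urothelial surface cells, had 1.24 and 0.75 in KO lines 2 and 4, against -1.12 and -0.75 in WT lines 5 and 6. Both KO lines lay far above both WT lines, and unlike Krt8 and Krt18 the higher of the KO lines was line 2. It rose 3.83-fold (1.94 ± 0.208 SE, limma adjusted p = 0.016). Krt7, a type II keratin of ducts and simple epithelia, had 0.11 and 0.22 in KO lines 2 and 4, against -1.26 and -0.11 in WT lines 5 and 6. Here 1 library decided the difference of 0.85 ± 0.371 SE (limma adjusted p = 0.21): WT line 5 stood apart, and without it the difference was 0.28.

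Krt19, a small type I keratin of simple and ductal epithelia, was the listed gene that fell. It had -0.23 and -0.17 in KO lines 2 and 4, against 0.21 and 0.17 in WT lines 5 and 6. The lines of a genotype lay close together, and the 1.31-fold decrease (-0.39 ± 0.0814 SE) was just past the threshold (limma adjusted p = 0.0436). Tested among all probe sets, the same values had an adjusted p of 0.0661 by limma, and the call was also lost among genes with an SD above the median (limma adjusted p = 0.0731).

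The keratins of stratified epithelia had small positive differences. None of Krt5, Krt14, Krt15 and Krt17 was called by limma in either direction, 1 of them (Krt5) at an unadjusted p under 0.05, and their differences ran from 0.0057 (Krt15) to 0.23 (Krt5). Krt5, Krt14 and Krt17 lay higher in both KO lines than in both WT lines (3 of 4, beside 28.7% of all genes). For Krt17 the gap was small, with 0.0089 in KO line 4 beside 0.00074 in WT line 5. The genotypes overlapped in each of its 2 probe sets taken alone. Of the 3 probe sets of Krt14, only 1455573_at had no overlap. Whether the simple keratins differed more than the 4 stratified ones was not tested. Of these, Krt5 and Krt14 are the basal pair, Krt15 marks basal and hair follicle cells and Krt17 is known from appendages and wounded epidermis. A probe set annotated to both Krt17 and Krt14 was left out of the gene values and had a difference of -0.23 ± 0.115 SE (limma adjusted p = 0.288). Of 20 other keratins measured, limma called 0, beside 12.2% of all genes, and 1 had an unadjusted p under 0.05 (Krt80, -0.27 ± 0.102 SE). Their differences lay between -0.27 and 0.25, with a median of -0.023.

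Among the 9 desmosome and plakin genes, Dsp and Pkp2 rose (22.2%, beside 5.21% of all genes) and 7 were not called. Dsp, desmoplakin, which ties keratin filaments to the desmosome, had 0.69 and 0.78 in KO lines 2 and 4, against -1.34 and -0.64 in WT lines 5 and 6. The KO lines were nearly alike and WT line 5 lay below WT line 6, and the increase was 3.30-fold (1.72 ± 0.235 SE, limma adjusted p = 0.0204). Its 3 probe sets disagreed: 1435494_s_at (2.89 ± 0.39 SE, 7.43-fold) and 1435493_at (2.28 ± 0.264 SE, 4.87-fold) were called, while 1427610_at differed by -0.0066 ± 0.097 SE, so that the mean over probe sets is smaller than what either responding probe set showed.

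Pkp2, plakophilin 2, the armadillo protein of desmosomes in heart and simple epithelia, had 0.44 and 0.31 in KO lines 2 and 4, against -0.36 and -0.19 in WT lines 5 and 6. It rose 1.57-fold (0.65 ± 0.104 SE, limma adjusted p = 0.0269), with all 4 of its probe sets higher and 2 of them called. The order of the KO lines differed between its probe sets, with line 4 above line 2 in 1460511_at and line 2 above line 4 in the other 3.

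The other desmosome genes had differences between -0.12 and 0.15, and none was called by limma (0 at an unadjusted p under 0.05). They were the cadherins Dsg2 (0.064 ± 0.113 SE) and Dsc2 (-0.12 ± 0.128 SE), the membrane-spanning cadherins of desmosomes in simple epithelia, the plakophilins Pkp1 and Pkp3, plakoglobin (Jup, 0.15 ± 0.112 SE) and the cornified envelope plakins Ppl and Evpl. In KO line 4, 3 of the 6 probe sets of Dsg2 lay at 0.29, 0.44 and 0.33, and in KO line 2 the same probe sets lay at -0.026, -0.13 and -0.026. Of 14 other desmosome and cornified envelope genes measured, 2 rose (14.3%, beside 5.21% of all genes) and 12 were not called. Perp, a membrane protein of desmosomes and a p53 target, had 1.62 and 0.93 in KO lines 2 and 4, against -1.56 and -0.93 in WT lines 5 and 6, and rose 5.72-fold (2.52 ± 0.304 SE, limma adjusted p = 0.018). Sprr1a, a cornified envelope precursor also known as a stress gene, rose 1.53-fold (0.62 ± 0.1 SE, limma adjusted p = 0.0277). Pkp4, a plakophilin relative of adherens junctions, stood at 0.47 ± 0.116 SE (limma adjusted p = 0.0643).

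**Figure D3:**
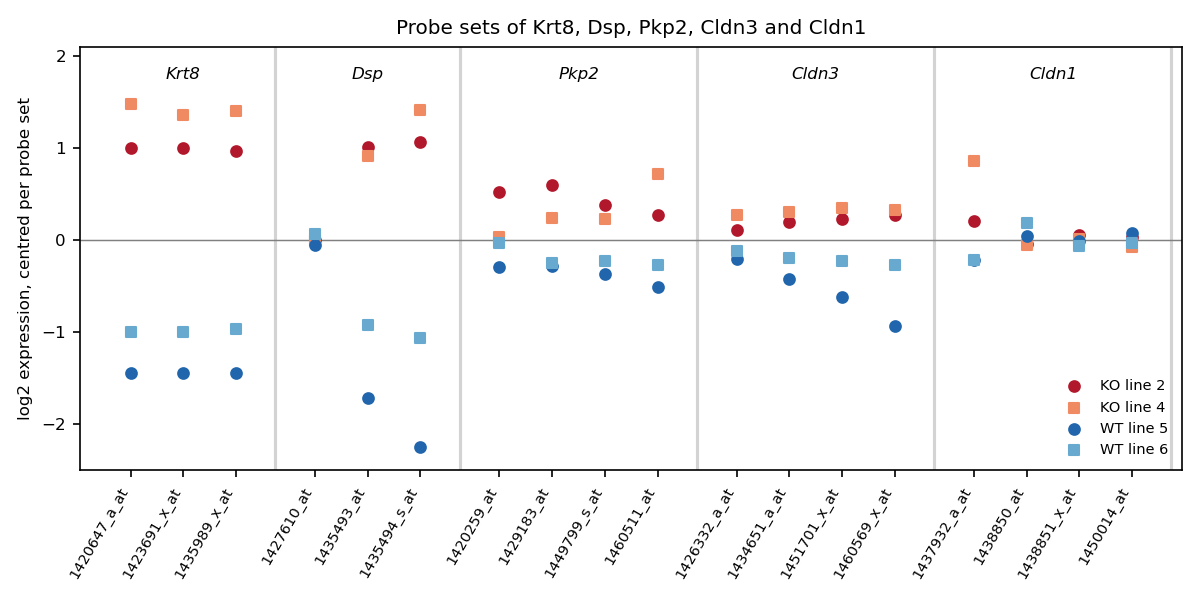
Centred log2 expression (y axis) of each probe set of Krt8, Dsp, Pkp2, Cldn3 and Cldn1 (x axis) in the 4 lines, with 1 point per line. The 3 probe sets of Krt8 give the same pattern, whereas 1 of 3 probe sets of Dsp and 3 of 4 probe sets of Cldn1 show little separation of KO from WT lines.

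In the tight junction group of 8 genes, Cldn4 and Cldn3 rose (25%, beside 5.21% of all genes) and 6 were not called. All 8 differences were positive, beside 8955 of all 18193 genes. Cldn4, a sealing claudin of simple epithelia, had 0.52 and 1.10 in KO lines 2 and 4, against -0.52 and -1.19 in WT lines 5 and 6. The lines differed within each genotype by 0.58 (KO) and 0.68 (WT), less than the gap between the genotypes, and the increase was 3.16-fold (1.66 ± 0.292 SE, limma adjusted p = 0.0319).

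Cldn3, also a sealing claudin, had 0.20 and 0.32 in KO lines 2 and 4, against -0.54 and -0.20 in WT lines 5 and 6. It rose 1.55-fold (0.63 ± 0.137 SE, limma adjusted p = 0.0481), a call at the edge of the threshold. The call was lost when each array was centred on its median (limma adjusted p = 0.0504) and with the most variable probe set of each gene (limma adjusted p = 0.0571). Of 7 other settings with all 4 lines, 5 called it. All 4 probe sets, each with an _a_at or _x_at suffix, had positive differences, between 0.36 and 0.90, and none was called among all probe sets (limma adjusted p 0.0521 to 0.112).

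Of the remaining tight junction genes, Cldn7 had the largest difference (0.31 ± 0.0913 SE, limma adjusted p = 0.0931). Cldn1, the claudin of the epidermal barrier, was split: 1437932_a_at had 0.21 and 0.86 in KO lines 2 and 4, against -0.21 and -0.22 in WT lines 5 and 6 (0.75 ± 0.219 SE, limma adjusted p = 0.108), while its 3 other probe sets differed by -0.16 to 0.071. Cldn6, an embryonic claudin, Ocln (occludin), and the scaffold proteins Tjp3 and Cgn (cingulin) had differences between 0.027 and 0.17. F11r, the junctional adhesion molecule A, rose (0.45 ± 0.0817 SE, limma adjusted p = 0.0332). It was 1 of 31 other junction and polarity genes measured (3.23%, beside 5.21% of all genes called higher), and 30 were not called. Of those 30, 1 had an unadjusted p under 0.05 with a positive difference and 4 with a negative one. Over all genes, called ones included, these shares were 14.3% and 15.2%.

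Classical epithelial adhesion molecules did not pass the test. Cdh1, E-cadherin, the cadherin of epithelial adherens junctions, had 0.071 and 0.14 in KO lines 2 and 4, against -0.15 and -0.071 in WT lines 5 and 6 (0.22 ± 0.0854 SE, limma adjusted p = 0.172). The genotypes did not overlap, but the difference was 1.16-fold. Epcam, the epithelial cell adhesion molecule, differed by -0.13 ± 0.1 SE (limma adjusted p = 0.453), and its lines overlapped.

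None of the 3 regulators was called. Esrp1, which directs epithelial splicing, stood at -0.16 ± 0.103 SE without overlap between the genotypes, Grhl2, a Grainyhead factor that activates junction genes, at 0.044 ± 0.0877 SE and Elf3, an epithelial Ets factor, at -0.12 ± 0.144 SE, with limma adjusted p between 0.387 and 0.806. The membrane protease St14 (matriptase), its inhibitors Spint1 and Spint2, and Rab25, a small GTPase of apical recycling, had differences between 0.010 and 0.17. The largest of these, that of Spint1, came from KO line 4 alone, at 0.48 beside -0.14 in KO line 2, and was -0.14 without line 4. Counted together, 26 of the 35 genes were neither called nor 1.5-fold apart without overlap, and their differences ran from -0.16 to 0.31 with SE between 0.0789 and 0.218. A p that misses the threshold with 2 lines per genotype does not show that these genes were equal.

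Of 26 further epithelial regulators and surface genes measured, 1 rose (3.85%, beside 5.21% of all genes) and 2 fell (7.69%, beside 6.95%). The Krüppel-like factors moved in opposite directions: Klf5, of proliferating epithelial cells, rose (0.55 ± 0.0969 SE, limma adjusted p = 0.0319), whereas Klf4, of differentiating epithelium, fell (-0.75 ± 0.101 SE, limma adjusted p = 0.0202). Prom1 (prominin 1, a protein of membrane protrusions) also fell (-0.89 ± 0.141 SE, limma adjusted p = 0.0269). Esrp2, Grhl1, Grhl3, Ovol1, Ovol2 and Trp63, the p63 factor of basal epithelium, were not called, with differences between -0.16 (Ovol2) and 0.11 (Ovol1). In the hemidesmosome list, the tetraspanin Cd151 rose (0.48 ± 0.0836 SE, limma adjusted p = 0.0319). It was 12.5% of the 8 measured genes, beside 5.21% of all genes called higher, and 7 were not called. Over these 5 lists of other epithelial genes together, 5 of 99 measured rose (5.05%, beside 5.21% of all genes) and 2 fell (2.02%, beside 6.95%). In either direction 7.07% were called, beside 12.2% of all genes, and the median difference was -0.011.

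Of 12 mesenchymal regulators and cadherins that oppose or accompany the loss of the epithelial state, 1 fell and 11 were not called. The 1 that fell was 8.33%, beside 6.95% of all genes. Twist2, a repressor of the Twist family, had -0.65 and -0.45 in KO lines 2 and 4, against 0.63 and 0.45 in WT lines 5 and 6, and fell 2.12-fold (-1.09 ± 0.117 SE, limma adjusted p = 0.016). Among the others, 2 with a positive and 3 with a negative difference had an unadjusted p under 0.05. Of all genes, called ones included, 14.3% had such a p with a positive and 15.2% with a negative difference. The positive ones were Foxc2, a forkhead factor (0.73 ± 0.192 SE, limma adjusted p = 0.0737), and Cdh2, N-cadherin (0.31 ± 0.106 SE, limma adjusted p = 0.131). The negative ones were Cdh11, a mesenchymal cadherin (-0.39 ± 0.0896 SE, limma adjusted p = 0.0545), Zeb1 (-0.32 ± 0.0826 SE, limma adjusted p = 0.0728) and Prrx1, a mesenchymal homeobox factor (-0.49 ± 0.143 SE, limma adjusted p = 0.0899). Zeb2 (0.20 ± 0.163 SE), Snai1 (-0.16 ± 0.153 SE) and Snai2 (-0.075 ± 0.0966 SE) stood at smaller values. So did Twist1, of the same family as Twist2 (-0.068 ± 0.0921 SE), with overlap between the genotypes. Vim, vimentin, the intermediate filament of mesenchymal cells, differed by -0.051 ± 0.0795 SE.

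Position on the chromosome was compared next. In the RefSeq order of protein-coding genes (GRCm38.p6), Krt8 and Krt18 are direct neighbours on chromosome 15, as are Cldn4 and Cldn3 on chromosome 5. The listed genes compared with their flanks were those called higher and Krt18, and values above the flanks follow in part from this choice. The 3 nearest measured genes on each side were taken for the pairs, Krt20, Dsp and Pkp2. Of these 30 flanking genes, limma called 0 higher, beside 5.21% of all genes, and 5 lower, beside 6.95%. Those lower were Eif4b (-0.40) and Tns2 (-0.40) beside Krt18, Mettl27 (-0.58) beside Cldn4, and Cebpd (-1.18) and Spidr (-1.19) beside Pkp2. Riok1 (0.55 ± 0.138 SE) and Snrnp48 (0.42 ± 0.115 SE) beside Dsp had positive differences without overlap and were not called. The same held for Stx1a (0.31) and Bud23 (0.36) beside Cldn3 and for Yars2 (0.43), Fgd4 (0.17) and Dnm1l (0.040) beside Pkp2. In the keratin clusters it held for Krt79 (0.25) and Krt10 (0.14). Negative without overlap and not called were Txndc5 (-0.34) beside Dsp, Krtap1-5 (-0.18) beside Krt20 and Krt4 (-0.062) beside Krt8. Of all genes, 28.7% lay higher in KO without overlap and 29.5% lower. The keratin genes next to Krt8 (Krt4, -0.062, Krt79, 0.25, and Krt78, -0.071) and those next to Krt20 (Krt28, 0.042, Krt10, 0.14, Krt12, -0.10, and Krt23, 0.028) were not called.  The rule for the flanking genes was chosen after the values were seen.

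**Figure D4:**
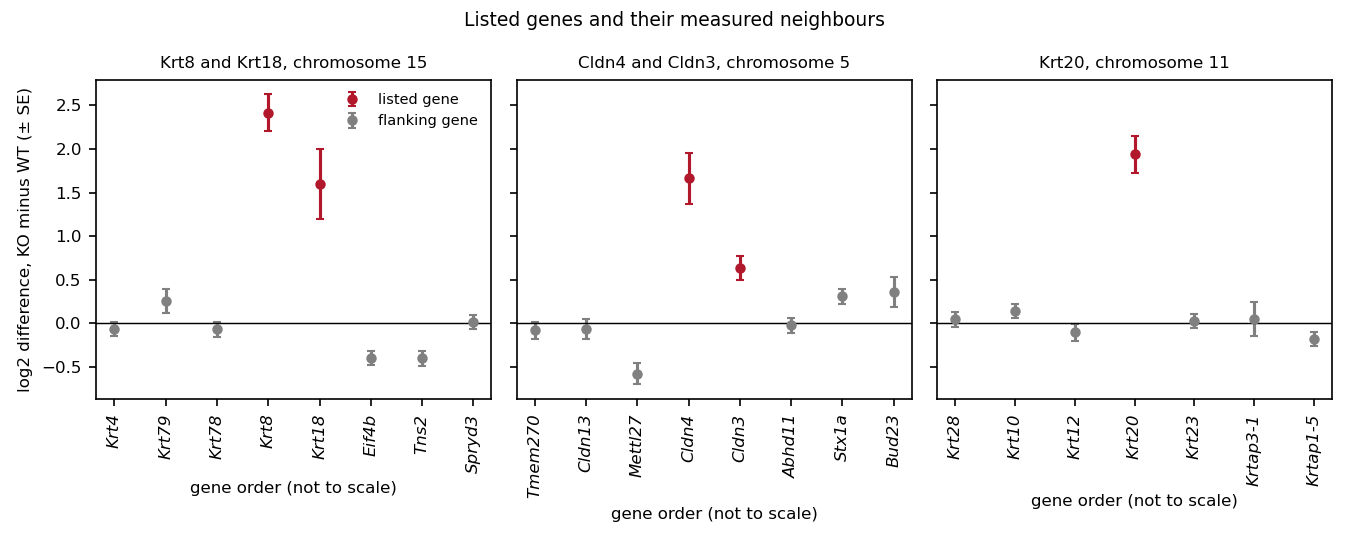
Log2 difference between KO and WT lines (y axis, ± SE of the limma fit, n = 2 lines per genotype) for Krt8 and Krt18, Cldn4 and Cldn3, and Krt20 (red) and the 3 nearest measured protein-coding genes on each side (grey), in chromosome order and not to scale. The red points stand above all flanking genes of their panel, which follows in part from the choice of listed genes that were higher in KO.

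Markers of other cell types that a torso culture could hold moved between the lines, and some moved with the knockout. All 8 measured markers of mesothelium, the simple keratin-expressing lining of the body cavities, were highest in KO line 4, beside 3582 of all 18193 genes. Their list medians were -0.047 and 0.93 in KO lines 2 and 4, against -0.076 and -0.11 in WT lines 5 and 6. Lrrn4 had 0.086 and 1.35 in KO lines 2 and 4, against -0.29 and -0.086 in WT lines 5 and 6. Upk3b had 0.048 and 1.38 in KO lines 2 and 4, against -0.055 and -0.14 in WT lines 5 and 6. Among these 8 markers only Msln was called (12.5%, beside 12.2% of all genes in either direction). Its difference was 0.59 ± 0.104 SE (limma adjusted p = 0.032), with 0.22 and 0.39 in KO lines 2 and 4, against -0.22 and -0.35 in WT lines 5 and 6. KO line 2 lay above both WT lines for Msln, Lrrn4 and Upk3b. It was the lowest of all lines for 3 markers, Wt1 (-1.07), Gpm6a (-0.29) and Bnc1 (-0.27). For Upk1b and Muc16 it lay between the WT lines.

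KO line 4 was above KO line 2 in 6 of the 8 listed epithelial genes that were at least 1.5-fold apart, Krt20 and Pkp2 being the exceptions. Whether this order is related to the mesothelium markers was not tested. WT line 5 was below WT line 6 in 7 of the same 8 genes, with Cldn4 as the exception. The shares of all genes with these orders of lines were not counted. Of the 4 lines, WT line 5 was highest for 11 of 12 fibroblast markers and lowest for 8 of 9 smooth muscle markers. Of all 18193 genes, it was highest for 5489 and lowest for 5531. Its array had the widest spread of values over all probe sets (SD 0.27, against 0.20 to 0.24 for the other arrays). The part of this line in the results was not tested beyond leaving it out. Without KO line 4, the difference was 2.20 for Krt8 (limma adjusted p = 0.0375) and 2.18 for Krt20 (limma adjusted p = 0.0324), and both stayed called, among 1.76% of all genes. Without that line Dsp stood at 1.68, Cldn4 at 1.37, Pkp2 at 0.72 and Cldn3 at 0.58, none of them called (limma adjusted p 0.0826 to 0.196). Without KO line 2, WT line 5 or WT line 6, none of the listed genes was called, and limma called 0, 1 (0.0055%) and 0 of all genes.

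Smooth muscle markers, which lay higher in both KO lines, had list medians of 0.40 and 0.29 in KO lines 2 and 4, against -0.44 and -0.29 in WT lines 5 and 6. Of these markers, 7 of 9 rose (77.8%, beside 5.21% of all genes). The 4 with the smallest p were Myh11 (0.95 ± 0.0888 SE) and Myl9 (0.69 ± 0.0964 SE), a heavy and a light chain of myosin, desmin (Des, 0.62 ± 0.0896 SE) and the actin Actg2 (0.89 ± 0.131 SE), with limma adjusted p between 0.0144 and 0.0238. Fibroblast markers fell in 8 of 12 cases (66.7%, beside 6.95% of all genes). Their list medians were -0.43 and -0.32 in KO lines 2 and 4, against 0.52 and 0.26 in WT lines 5 and 6. The 4 with the smallest p were the collagen genes Col6a3 (-1.07 ± 0.11 SE), Col1a1 (-0.96 ± 0.129 SE) and Col1a2 (-0.59 ± 0.102 SE) and the receptor gene Pdgfrb (-0.52 ± 0.09 SE), with limma adjusted p between 0.0155 and 0.0318. Macrophage markers were lowest in WT line 6 for all 8 genes, beside 3959 of all 18193 genes. Their list medians were -0.25 and 0.50 in KO lines 2 and 4, against 0.42 and -1.48 in WT lines 5 and 6. Limma called 0 of the 8 markers, beside 12.2% of all genes, with 0 at an unadjusted p under 0.05. Endothelium markers went both ways, with Emcn higher (1.85 ± 0.112 SE, limma adjusted p = 0.0103) and Tek lower (-0.72 ± 0.147 SE, limma adjusted p = 0.0426). Of the 8 endothelium markers, 25% were called, beside 12.2% of all genes. Trophoblast and yolk sac markers were not called (0 of 6, 0 at an unadjusted p under 0.05, by limma). The part of these cell types in the differences of the epithelial genes was not tested.

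**Figure D5:**
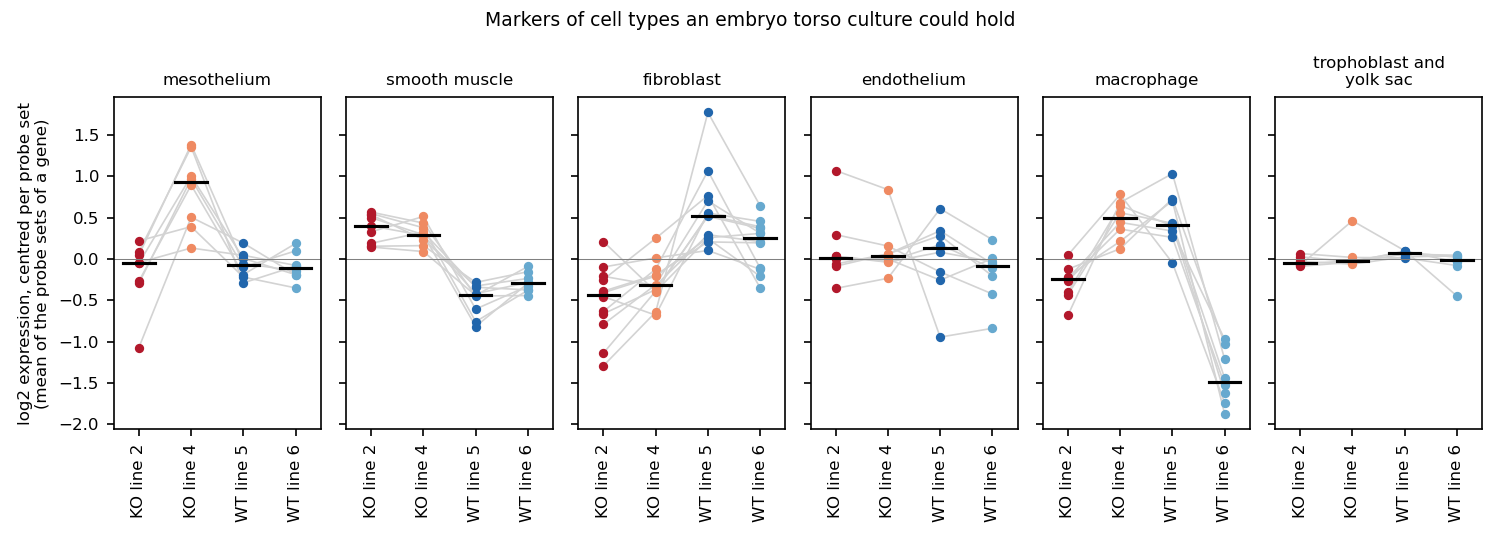
Centred log2 expression (y axis) of markers of 6 cell types in KO lines 2 and 4 and WT lines 5 and 6 (x axis), with 1 point per gene, grey lines joining the values of a gene and black bars for the median of the list. Mesothelium markers are high in KO line 4, smooth muscle markers are higher in both KO lines, fibroblast markers are mostly lower there, and macrophage markers are low in WT line 6.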

How the data were processed

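Total RNA of the 4 lines was labelled with biotin and hybridised to 1 Affymetrix array each. The design text gives the array as Mouse Genome 430A 2.0, but the value table had 45101 probe sets, 64 of them controls, and matched the annotation of a larger mouse array. The authors' deposited log2 values came from RMA in Affymetrix Expression Console, per the submitters' processing notes. No version was given, and the base of the logarithm is that of RMA. Each probe set had a median of 0 across the 4 arrays (100% within 1e-06), through a centring that no label describes. No detection calls, scan dates or batches were used, and precision is limited by having 4 arrays.

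The platform annotation named 1 gene for 34945 probe sets, several for 932, which entered no gene value, and none for 9160. Symbols were checked through Entrez identifiers against RefSeq (GRCm38.p6), which matched 34741 probe sets and changed 0 symbols. Values of a gene are the mean over its probe sets, of which 15 of the 35 listed genes had more than 1. The KO minus WT contrast came from limma 3.58.1 in R 4.3.3 (lmFit, eBayes) over all 18193 genes, without covariates and with 2 residual and 3.04 prior degrees of freedom, and over all probe sets that were not controls. The fit was also run on simulated data with independent noise for each gene and no line effects. That run checked the code and does not bear on the calls made here. Benjamini-Hochberg adjustment ran over all genes or all probe sets.

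The listed genes, the other gene lists and the tests were chosen with earlier results of these data known. Every listed gene is named, and of the other lists the called genes, at most 4 per list with the smallest p, are named. Other genes of these lists, the flanking genes and the promoter motifs were chosen after their values were seen. Alternatives were quantile normalisation, centring of arrays, other summaries of probe sets, a filter on variability, robust eBayes, array weights and leaving out each line. Promoters were matched by symbol for 21 of the 35 genes.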

Additional observations from a re-analysis of the deposited data

How the results depend on the processing

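Of the values of single listed genes under settings that kept all 4 lines, 244 kept direction and side of the threshold, 5 lost a call, 1 gained one (Krt18 among genes with an SD above the median) and 4 turned sign. Those that turned were Pkp3 (-0.095) and Ocln (-0.0026) with the most variable probe set of each gene, and Cldn1 (-0.11) and Dsg2 (-0.015) without _s_at, _x_at and _a_at probe sets, none of them called. Genes called lower numbered 0 in place of 1 with the most variable probe set, without the suffixed probe sets and among genes with an SD above the median. Without the suffixed probe sets, which hold all of Krt8, Krt7 and Cldn3, 5 rather than 8 genes were 1.5-fold apart without overlap, and 4 rather than 9 probe sets were called. Among probe sets with an SD above the median, 14 were called, and that SD includes the difference under test. The alternatives for probe sets were chosen after seeing the data.

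With 1 line left out, the fit has 1 residual degree of freedom. All genes called then ranged from 0 to 321 (2212 with all lines), listed genes called higher from 0 to 2 (6), called lower from 0 to 0 (1), 1.5-fold apart without overlap from 5 to 8 (8, the lowest without WT line 5), and called probe sets from 0 to 0 (9). The genotypes did not overlap in any of the 7 called genes, so their sign could not turn with 1 line left out. Of the uncalled genes, 9 turned sign. The ranges were -0.18 to 0.19 for Krt15, -0.029 to 0.16 for Dsg2, -0.13 to 0.034 for Pkp1 and -0.047 to 0.15 for Pkp3. They were -0.018 to 0.11 for Grhl2, -0.29 to 0.042 for Elf3 and -0.14 to 0.48 for Spint1. For Spint2 and Rab25 they were -0.092 to 0.11 and -0.041 to 0.062. The cause was not tested. No paired analysis was possible because KO and WT lines share no number.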
